A study of Mus musculus with 2 samples.

Results

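A set of 4 genes of hypoxia and lipid metabolism with CUT&RUN peaks was examined in regulatory T cells of mouse adipose tissue: Pgk1 and P4ha2, which belong to the hypoxia response, Acacb, a gene of fatty acid metabolism, and Ncoa1, which encodes a coactivator of nuclear receptors. They are 4 of 21900 protein-coding genes in the RefSeq table of the GRCm38.p6 assembly, the assembly of build mm10. A peak was linked to a gene when its summit, the position of highest coverage, lay in the gene body or within 10 kb of either gene end. This gave 4 of 219 peaks of the HIF-1α list and 3 of 94 peaks of the PPAR-γ list, and every one of the 4 genes had at least 1. Over all protein-coding genes, 97 (0.443%) were linked to a HIF-1α and 31 (0.142%) to a PPAR-γ peak. The genes were chosen by the presence of a called peak, which rests on pileup and local background, so those values describe the genes and support nothing further. Both libraries came from TCRβ+ CD4+ CD25hi YFP+ cells sorted from the stromal vascular fraction of adipose tissue of untreated 4-month-old male C57BL/6 mice of the Foxp3Cre genotype, with about 30000 cells per assay. One library was made with an antibody against HIF-1α and the other with an antibody against PPAR-γ. Each antibody had 1 library, so no difference has a replicate check, and whether cells of several animals were pooled is not given in the sources used here. No library with a control antibody or from cells without either factor was used here.

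HIF-1 is a transcription factor of an oxygen-regulated α subunit and a constitutive β subunit. When oxygen is low the α subunit escapes hydroxylation and degradation, and the dimer binds a short core sequence in genes of glycolysis, angiogenesis and matrix formation. PPAR-γ is a lipid-sensing nuclear receptor that binds DNA with the retinoid X receptor, recruits coactivators, and is known as a regulator of adipocytes and of the regulatory T cells of visceral fat. CUT&RUN maps where such proteins sit: a bound antibody recruits a nuclease fused to protein A, which cuts the DNA nearby, and the fragments set free are sequenced.

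The upstream sequences of the hypoxia genes are shown because Pgk1 was the only one of the 4 genes with a peak at its annotated start, whereas P4ha2 had its peak at the far side of the gene. Each is the 250 bases before the annotated start on the + strand, from RefSeq on GRCm38.p6, and capitals mark ACGTG and GCGTG, the core letters that HIF binds, read on either strand (CACGT and CACGC are the same letters on the opposite strand). The Pgk1 bases are chrX:106186850-106187099 and the P4ha2 bases are chr11:54100674-54100923.
Pgk1: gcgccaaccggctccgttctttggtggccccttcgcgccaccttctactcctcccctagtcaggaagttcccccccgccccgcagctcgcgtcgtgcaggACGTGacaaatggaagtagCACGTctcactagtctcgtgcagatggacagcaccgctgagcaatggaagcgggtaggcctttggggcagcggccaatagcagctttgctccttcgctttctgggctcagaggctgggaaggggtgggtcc
P4ha2: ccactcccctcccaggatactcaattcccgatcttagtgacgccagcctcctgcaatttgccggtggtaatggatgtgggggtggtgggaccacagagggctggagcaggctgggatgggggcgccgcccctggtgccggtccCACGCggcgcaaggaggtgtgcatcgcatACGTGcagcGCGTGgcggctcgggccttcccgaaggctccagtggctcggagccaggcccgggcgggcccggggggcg
The Pgk1 stretch held ACGTG 2 times, 150 and 131 bases before the start, and no GCGTG. The P4ha2 stretch held ACGTG once, 78 bases before the start, and GCGTG 2 times, 107 and 69 bases before it. The stretch before Acacb held each core once, and that before Ncoa1 held GCGTG 2 times and no ACGTG. Either core was present in 38.6% of all 32851 promoter stretches of this length, so its presence before all 4 genes is a description of letters and not of binding sites. At least 2 such sites stood in 16.7% of all stretches and at least 3, as before P4ha2, in 6.58%. The direct repeat bound by PPAR and its partner, written as AGGTCA, any base and AGGTCA again, was found before 0 of the 4 starts on either strand, and in 0.0335% of all stretches. CACGTG, which contains ACGTG, was also found before 0 of the 4 starts, against 6.02% of all. Sequence under the peaks of P4ha2, Acacb and Ncoa1 was not analysed here.

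Pgk1 encodes phosphoglycerate kinase, which makes ATP in glycolysis, and is a textbook HIF-1 target. Its body spans positions 106187100 to 106203699 of chromosome X on the + strand, 16.6 kb. The HIF-1α library had a peak over its start, from 106186999 to 106187309, 311 bp wide, with the summit 111 bp downstream of the start. The peak took in the last 101 of the 250 upstream bases shown above. The 2 ACGTG sites lay outside it, 45 and 26 bp before its lower edge and 261 and 242 bp before the summit. CCAAT, a common promoter element, lay inside it, 58 bases before the start, and 33.8% of all stretches hold CCAAT. The summit pileup, which is the number of tags extended to the fragment length that cover the summit, was 10 (Poisson interval 4.80 to 18.4). The authors' −log10 p, from a Poisson test of that pileup against the local background of the same library, was 7.13, their −log10 q was 2.66 and their fold enrichment over that background was 4.95. All peak scores here are the authors' own. Pgk1 was thus among the weakest peaks of its list, at place 214 of 219 by −log10 p, where the lowest −log10 q was 1.39. Pileups were not corrected for copy number, and male cells carry a single X chromosome.

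The PPAR-γ list had no peak at Pgk1, and its nearest summit was 29.6 Mb away. That library was shallower. At equal density per tag it would have held 3.74 tags at the Pgk1 summit (interval 1.79 to 6.88, counting error of the HIF-1α pileup only). The weakest PPAR-γ peak had a −log10 p of 8.44, and reaching it took 8 tags on the local background scaled from the HIF-1α library. To match that weakest peak, a PPAR-γ signal at Pgk1 would have had to be 2.14 times as dense as the HIF-1α signal. The q-value limit of 5% may have allowed a call with fewer tags, since the lowest −log10 q of the PPAR-γ list was 3.59. The lack of a PPAR-γ peak at Pgk1 therefore does not show a lack of signal there. Of the 130 HIF-1α peaks with no overlap in the PPAR-γ list, 21 had 10 tags or fewer.

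Other annotated starts inside HIF-1α peaks had the same low signal as Pgk1. The starts of 7 genes lay inside 6 of the 219 peaks: Cdc27 and Myl4, which share 1 peak, Gm10190, Pgk1, Tyw5, Vmn2r29 and Wapl, named after their values were seen. Their pileups ran from 8 at Gm10190 to 10, and 0 of the 6 peaks overlapped a PPAR-γ peak. The same held for all 21 HIF-1α peaks with 10 tags or fewer, and for 130 of all 219, so it does not set these peaks apart. ACGTG or GCGTG stood in the upstream stretch of 5 of the 7 genes, among them Pgk1, against 38.6% of all stretches. These 7 stretches were also rich in GC, from 60.0% to 74.4% against a median of 52.4% over all, and the part of GC content in that count was not tested. Pgk1 shared the highest pileup of this group with the peak of Cdc27 and Myl4 and those of Tyw5 and Vmn2r29, and by −log10 p it stood above Gm10190 alone (5.50). Retrotransposed copies of Pgk1 can share reads with its exons. The gene table names 3 pseudogene copies, 0 of them with a summit of either list within 10 kb, and how reads with several matches were handled is not given in the sources used here.

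P4ha2 encodes a catalytic subunit of the collagen prolyl hydroxylase, which stabilises the collagen triple helix, and is induced by HIF-1 in many cells. The gene spans positions 54100924 to 54131668 of chromosome 11 on the + strand, 30.7 kb. Its peak had the highest pileup and −log10 p of the 4 genes in both libraries and lay outside the gene, beyond its 3′ end. The HIF-1α peak ran from 54139945 to 54140718, 774 bp, with the summit 8.51 kb past the gene end and 39.3 kb from the start. The PPAR-γ peak ran from 54140029 to 54140655, 627 bp, and lay wholly inside the HIF-1α peak, with summits 46 bp apart. The nearest annotated gene was another one, the long noncoding RNA gene Gm12223, whose lower-coordinate end lay 1.69 kb from the HIF-1α summit. The next protein-coding genes were Pdlim4, 71.1 kb away on the other side of P4ha2, and Csf2, the GM-CSF gene, at 107 kb. The pileup was 41 in the HIF-1α library (29.4 to 55.6) and 21 in the PPAR-γ library (13.0 to 32.1). The authors' fold enrichment was 10.8 and 10.5, and the −log10 p was 33.0 and 20.7, place 57 of 219 and 53 of 94. The link to P4ha2 rests on the 10 kb limit: with a limit of 5 kb the gene had no peak in either list. Neither list had a peak at the P4ha2 start, where the sites shown above stand.

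Acacb encodes acetyl-CoA carboxylase β, the mitochondrial form of the enzyme, whose product malonyl-CoA restrains the entry of fatty acids into mitochondria for oxidation. The gene spans positions 114146321 to 114250761 of chromosome 5 on the + strand, 104 kb, and the promoter table places a start 19.2 kb inside it. The peak lay inside the gene, 7.61 kb downstream of that start and 26.8 kb from the outer 5′ end. HIF-1α signal covered 114172863 to 114173395, 533 bp, and PPAR-γ signal 114172857 to 114173401, 545 bp. These edges differed by 6 bp at either end and the summits by 3 bp, the closest match of the 3 shared positions. A shared position was not particular to these genes, since 89 of all 94 PPAR-γ peaks overlapped a HIF-1α peak. The pileup was 33 in the HIF-1α library (22.7 to 46.3) and 19 in the PPAR-γ library (11.4 to 29.7). The fold enrichment was the highest of the 4 genes in both libraries, 12.3 for HIF-1α and 11.0 for PPAR-γ, with −log10 p of 30.9 and 20.4. The next HIF-1α summit was 672 kb from the gene and the next PPAR-γ summit 32.0 Mb.

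Ncoa1 encodes a steroid receptor coactivator with histone acetyltransferase activity, which binds ligand-activated nuclear receptors, PPAR-γ among them. It is the longest of the 4 genes, 230 kb, from 4247362 to 4477206 of chromosome 12 on the − strand. Its peak lay deep inside the gene, 59.4 kb (HIF-1α) and 59.3 kb (PPAR-γ) downstream of the start. HIF-1α signal covered 4417654 to 4418012, 359 bp, and PPAR-γ signal 4417729 to 4418027, 299 bp. The pileup was 18 tags in the HIF-1α library (10.7 to 28.4), where the median over all peaks was 22. In the PPAR-γ library the peak was weak, with 10 tags (4.80 to 18.4). A pileup of 10 was the lowest in the whole PPAR-γ list. The fold enrichment was 7.94 and 7.33 and the −log10 p 14.9 and 11.1, place 132 of 219 and 89 of 94. The summits lay 132 bp apart, more than at P4ha2 or Acacb. Over all 89 shared pairs the median distance was 21 bp, and 9 pairs were at least as far apart as those of Ncoa1.

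**Figure D1:**
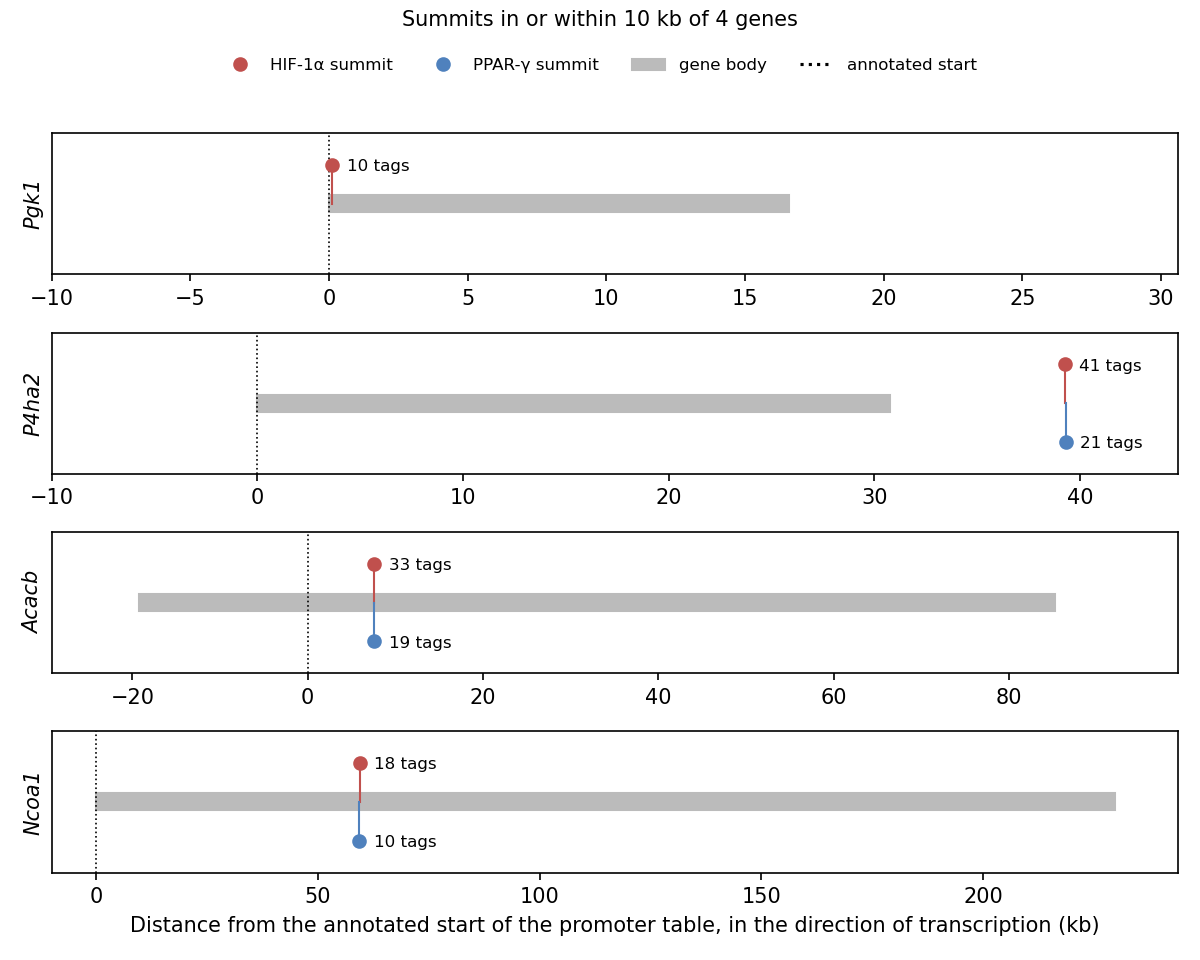
Position of the linked summits at the 4 genes. The horizontal axis is the distance in kb from the annotated start in the direction of transcription, grey bars are gene bodies, and red and blue points are HIF-1α and PPAR-γ summits with their pileups in tags; the Pgk1 summit sits at the start, those of Acacb and Ncoa1 inside the gene and those of P4ha2 past its end.

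The order of the pileups was the same in both libraries, P4ha2, Acacb, Ncoa1, and Pgk1 last in the HIF-1α list and without a PPAR-γ peak. Neighbours in that order had overlapping counting intervals wherever both had a peak, which is not a test of their difference. The counting intervals of P4ha2 and Acacb overlapped in both libraries, those of Acacb and Ncoa1 overlapped in both, and in the HIF-1α library those of Ncoa1 and Pgk1 did. In the HIF-1α library the interval of Pgk1 lay below those of P4ha2 and Acacb, and that of Ncoa1 lay below that of P4ha2.

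**Figure D2:**
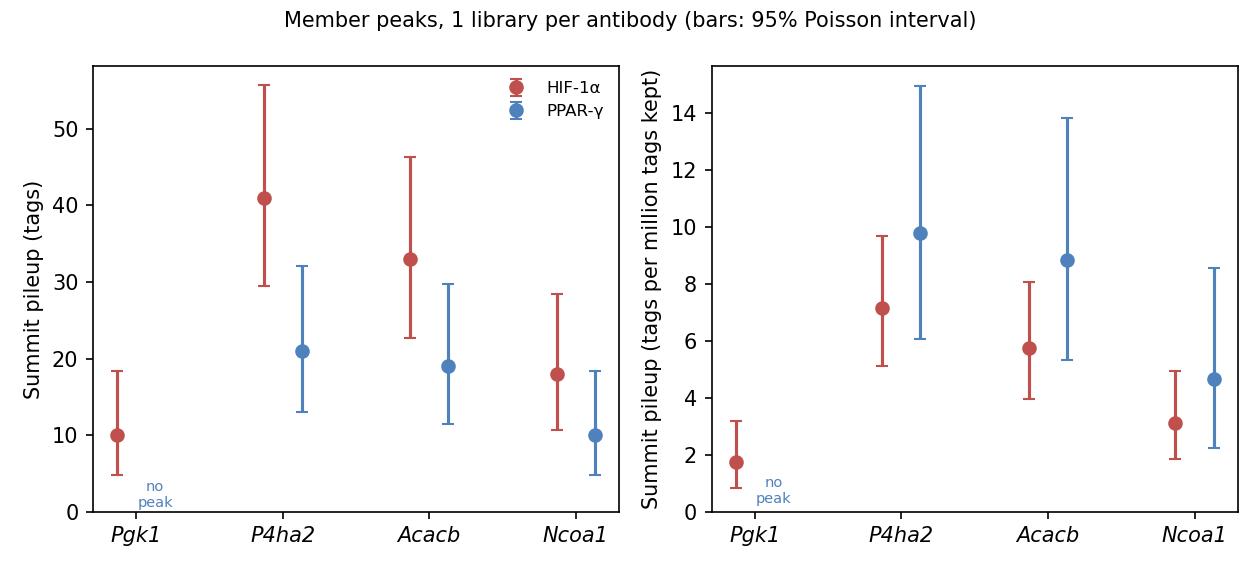
Summit pileup of each linked peak as tags (left) and scaled to 1000000 tags kept (right), by gene and antibody, with 95% Poisson intervals from 1 library each. Tag numbers are higher in the HIF-1α library at all 3 shared positions and scaled numbers are higher in the PPAR-γ library, with overlapping intervals at each gene.

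The question of how strongly each antibody marked the same position was addressed by scaling pileups to the tags that remained after duplicate removal, 5737208 for HIF-1α and 2145910 for PPAR-γ, a ratio of 2.67. Scaled to 1000000 remaining tags, P4ha2 had 7.15 tags with the HIF-1α antibody and 9.79 with the PPAR-γ antibody. Acacb had 5.75 and 8.85, Ncoa1 had 3.14 and 4.66, and Pgk1 had 1.74 in the HIF-1α library. The ratio of the scaled pileups, PPAR-γ over HIF-1α, was 1.37 at P4ha2 (0.769 to 2.37, exact conditional binomial interval). It was 1.49 at Ncoa1 (0.613 to 3.39) and 1.54 at Acacb (0.827 to 2.79). All 3 ratios were above 1, as were those of 72 of all 89 shared pairs (80.9%). All 3 intervals included 1, so no difference was detected at these positions. Of the 89 pairs, 35 had intervals wholly above 1 and 1 wholly below, and 8 of the 23 pairs with HIF-1α pileups in the range of these genes had intervals wholly above 1. The intervals compare these libraries and cover counting error only.

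The 3 ratios lay in the middle of the shared peaks. None was past 2-fold, whereas 34 of all 89 shared pairs (38.2%) were past 2-fold higher in the PPAR-γ library and 0 (0%) past 2-fold lower. The median ratio of the 89 pairs was 1.55, and P4ha2, Ncoa1 and Acacb held places 51, 48 and 46 from the highest. The 89 pairs are not all independent positions. Several lie close together, as between 3000195 and 3035281 of chromosome 9. The HIF-1α peak from 124256354 of chromosome 9 enters with more than 1 PPAR-γ peak. The median and shares thus describe the pairs as listed. The pairs next to P4ha2 in this order had ratios of 1.37 and 1.41, and those next to Acacb 1.51 and 1.55. Among the same 23 pairs, whose HIF-1α pileups ran from that of Ncoa1 to that of P4ha2, these genes included, the median was 1.72 and 22 were above 1. Relative to the median of all pairs, the ratios were 0.882 at P4ha2, 0.957 at Ncoa1 and 0.992 at Acacb. A pair enters this comparison only if the shallower library also reached a call. At Ncoa1, with 18 HIF-1α tags, the lowest pileup observed in the PPAR-γ list, 10, already gives the ratio of 1.49.

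**Figure D3:**
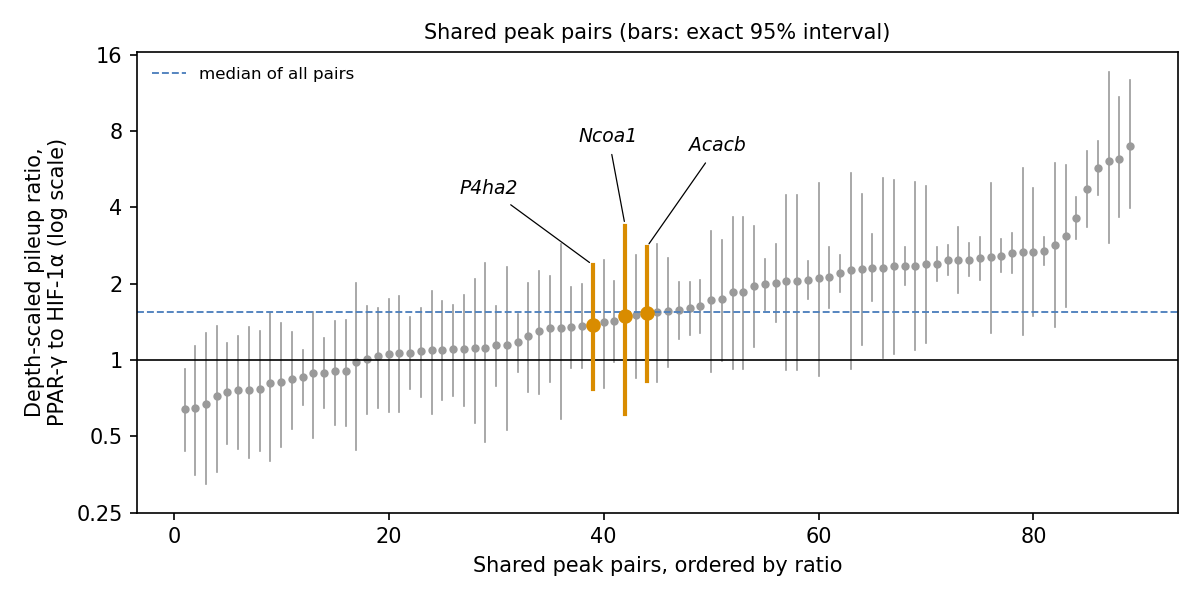
Ratio of scaled pileups, PPAR-γ over HIF-1α (log scale), of the 89 shared peak pairs in rising order, with exact 95% intervals. Orange marks P4ha2, Ncoa1 and Acacb at 1.37, 1.49 and 1.54, just below the dashed median of 1.55; their intervals cross the line at 1.

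The deposited scores also hold the tags around each summit. The fold enrichment is the pileup plus 1 over the local background plus 1, and that background is the number of tags in a 10 kb window, scaled to the fragment length. Solving for that number gave whole tags, within 0.05, at 215 of 219 HIF-1α peaks and 94 of 94 PPAR-γ peaks, the 4 linked HIF-1α and 3 linked PPAR-γ peaks included. At Pgk1 the window held 43 HIF-1α tags, of which the 10 over the summit were 23.3% (exact interval 11.8 to 38.6). At P4ha2 it held 102 HIF-1α tags with 41 over the summit, 40.2% (30.6 to 50.4), and 37 PPAR-γ tags with 21, 56.8% (39.5 to 72.9). At Acacb it held 62 with 33, 53.2% (40.1 to 66.0), and 28 with 19, 67.9% (47.6 to 84.1). At Ncoa1 it held 49 with 18, 36.7% (23.4 to 51.7), and 17 with 10, 58.8% (32.9 to 81.6). The share over the summit was highest at Acacb in both libraries and lowest at Pgk1 in the HIF-1α library. In the HIF-1α library only the intervals of Acacb and Pgk1 did not overlap, and those of every other pair of genes did. All 3 overlapped in the PPAR-γ library. Among the 4 genes the P4ha2 window was the richest in tags, at 4.80 times the HIF-1α and 4.66 times the PPAR-γ library average at the genome size set in the headers. The Pgk1 window was at 2.02 times, the Acacb window at 2.92 and 3.52 times and the Ncoa1 window at 2.31 and 2.14 times that average. These multiples count the summit tags. Without them P4ha2 stood at 2.87 and 2.01 times, Pgk1 at 1.55 times, Acacb at 1.36 and 1.13 times and Ncoa1 at 1.46 and 0.881 times. The headers set a human genome size. At the mouse size the average over a fragment length would be 0.871 rather than 0.603 HIF-1α tags. For PPAR-γ it would be 0.339 rather than 0.234 tags. All these multiples would then be lower. The median window over all peaks held 58 HIF-1α and 48 PPAR-γ tags.

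Over the whole 10 kb the scaled ratios were nearer to 1 than at the summits, with overlapping intervals. The depth-scaled ratio of window tags was 0.970 at P4ha2 (0.647 to 1.43), 0.928 at Ncoa1 (0.501 to 1.64) and 1.21 at Acacb (0.744 to 1.92). With the summit tags left out, it was 0.701 at P4ha2 (61 HIF-1α and 16 PPAR-γ tags, 0.377 to 1.23). It was 0.604 at Ncoa1 (31 and 7 tags, 0.224 to 1.40) and 0.830 at Acacb (29 and 9 tags, 0.346 to 1.80). At all 3 genes the summit thus held a larger share of the window in the PPAR-γ library, as it did at 68 of all 89 pairs, and the intervals of the shares overlapped at each gene. Over the 88 pairs with tags outside both summits the median ratio outside the summit was 1.11, and 36 were below 1. The peak calls rest on the same summit and window tags, with each library read at its own summit. A pair enters only if the shallower library also reached a call. The shares and the ratios outside the summit therefore describe called peaks and support no difference between the libraries.

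**Figure D4:**
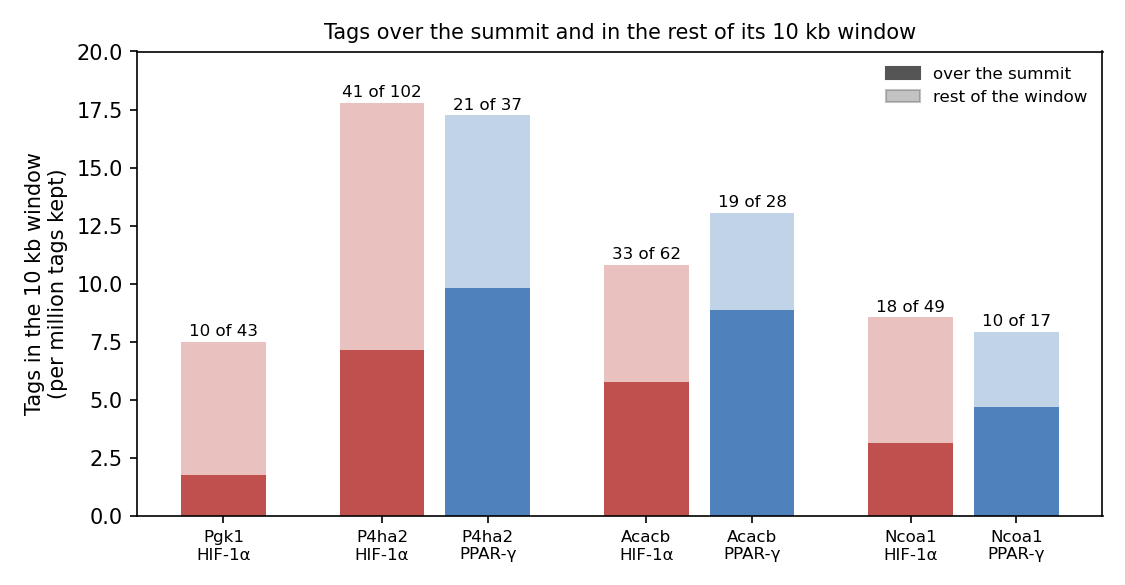
Tags in the 10 kb window around each linked summit, split into those over the summit (dark) and the rest of the window (pale), in red for HIF-1α and blue for PPAR-γ, scaled to 1000000 tags kept; the labels give the tags themselves. The dark part is the larger share of the PPAR-γ bar at all 3 shared positions, and the P4ha2 windows hold the most tags.

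No other gene of the listed pathways was linked to a peak. Over all 21900 protein-coding genes the linked share was only 0.443% for HIF-1α and 0.142% for PPAR-γ. At such shares 0 links in a short list is no trait of that list. Of 22 glycolysis genes, 1, Pgk1, was linked to a HIF-1α peak and 0 to a PPAR-γ peak. Of 21 other HIF-1 target genes, 1, P4ha2, was linked in each list, and it was also the only 1 of 4 collagen prolyl hydroxylase subunits. Acacb was the only 1 of 11 genes of fatty acid synthesis and its carboxylases in each list, and Ncoa1 the only 1 of 20 nuclear receptor coactivators and partners. None of 17 genes of fatty acid oxidation and transport, 15 other PPAR target genes or 10 HIF subunits and regulators was linked in either list. The same held for 15 adipose Treg and T cell identity genes, Foxp3 among them, and 8 macrophage and adipocyte genes. Peak lists do not measure expression, so the sorted cell type could not be checked by its markers. The lists were drawn up with these links known, so their counts are not evidence that any pathway was marked. Nor are the zeros evidence that a pathway was left unmarked.

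The relatives of the 4 genes had no summit within 10 kb, as was the case for nearly all protein-coding genes. Pgk2, a second phosphoglycerate kinase gene, lay 0.359 Mb from the nearest summit in both lists. The nearest HIF-1α summit was 1.09 Mb from P4ha1 and 0.817 Mb from P4ha3, the other catalytic subunits. It was 4.68 Mb from Acaca, the cytosolic carboxylase, 0.481 Mb from Ncoa2 and 15.8 Mb from Ncoa3. In the PPAR-γ list the nearest summit was 4.68 Mb from Acaca and 31.6 Mb from Ncoa2. Among the 135 listed genes other than the 4, the closest to a summit was Ccr2, a chemokine receptor gene, at 148 kb in the HIF-1α and 147 kb in the PPAR-γ list, so no listed gene lay just outside the 10 kb limit.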

How the data were processed

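The HIF-1α and PPAR-γ CUT&RUN libraries, 1 each, were told apart by sample title. Bowtie2 2.2.5, SAMtools 1.1 and build mm10 are named in the submitters' processing notes. Peaks were called per library with MACS 2.1.3.3 and no control, per the file headers, at a q-value limit of 5%, keeping 1 tag per position, with a human genome size. The HIF-1α library kept 5737208 of 9433452 tags and the PPAR-γ library 2145910 of 3403341.

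The deposited pileup is a signal, unscaled between libraries. The deposited −log10 p and −log10 q come from a Poisson test, which a recomputation matched within 0.01 at 218 of 218 and 93 of 93 finite values. The deposited fold enrichment is a ratio to the local background, and the deposited width is in bp.

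Genes and promoter stretches came from RefSeq tables of GRCm38.p6, and all listed genes matched by symbol. Peaks were shared at an overlap of at least 1 bp. Intervals are 95% and exact (Poisson, conditional binomial or Clopper-Pearson), and cover counting error only, since without molecular identifiers amplified reads can repeat 1 molecule. No test was run. Named genes were the 4 genes, listed genes with a summit within 10 kb, and their neighbours; relatives of the 4 genes, genes with a start inside a peak, and Ccr2 and Foxp3 were named after their values were seen. Genes and lists were chosen with earlier results of these data known. Interval code was tested on simulated data. Python 3.11.15, SciPy 1.17.1 and pandas 2.3.3 were used. Spike-in scaling was not used here.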

Additional observations from a re-analysis of the deposited data

How the results depend on the processing

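Of the alternatives to the counts, ratios and shares, 35 stayed within 1.5 times the count or inside the interval and 3 moved. Not all were separate checks, since the pathway-list counts repeated those of the linked peaks. The ratio alternatives only rescaled the same tags or subtracted background, and were judged against wide intervals. Of the linked HIF-1α peaks, 2 (P4ha2 and Acacb) reached a fold enrichment of 10. Scaling by the median ratio of all pairs left 15.7% of pairs past 2-fold, 6 higher and 8 lower. Reading the given strand only, 25.5% of promoter stretches held ACGTG or GCGTG, with 1 site left before each of Pgk1, Acacb and Ncoa1. These 3 moves follow from the settings themselves: a stricter fold limit, ratios recentred on their median, and opposite-strand sites left out. P4ha2 was not linked in either list by gene body, within 1 kb or within 5 kb. Pgk1 was lost at a −log10 p of at least 10 and at a fold of at least 5. With summits within 100 bp, Ncoa1 was no longer a shared position. Relative to the median ratio all 3 ratios fell below 1 (0.882 to 0.992), inside their intervals. The local background, which counts the summit tags, exceeded the genome-wide one at 7 of 7 linked peaks. It did so at 215 of all 219 HIF-1α and 94 of all 94 PPAR-γ peaks, so this is no trait of the linked ones. At the 7 linked peaks it also held with the mouse genome size, an alternative chosen after seeing the data. No paired analysis was possible because there was a single library per antibody. Depth limits every ratio, since 7 to 61 tags lay outside the summits and 10 to 41 over them.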

Other observations

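The stretch before the Ncoa1 start was unusual in its letters. It held GGGCGG, the GC box bound by Sp1-type factors, 7 times on its own strand, and 0.411% of all 32851 stretches held it at least 7 times on both strands together. Its GC content was 85.6%, against 62.8% before Pgk1, 70.0% before P4ha2, 52.4% before Acacb and a median of 52.4% over all stretches. Neither library had a summit closer to this start than 59.3 kb.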
